A study of Mus musculus with 24 samples.

Results

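The genes described here are 10 members of the BCL2 family, the proteins that decide whether the mitochondrial outer membrane is breached and a cell dies by apoptosis. They were taken by symbol, with 1 row per gene identifier: the anti-apoptotic genes Bcl2, Bcl2l1, Mcl1 and Bcl2a1b, the effectors Bax and Bak1, and the BH3-only genes Bcl2l11, Bid, Bbc3 and Pmaip1. All 10 were found in both expression tables, among 22996 genes of the table for bone marrow-derived macrophages (BMDMs) and 54380 genes of the table for the J774.1 line, and all 10 passed the filter on low values. The values are TPM, a share of each library's transcripts, which are corrected for transcript length, so levels can be compared between genes. They were made from polyadenylated RNA with an unstranded kit. The study asked how the transcriptional corepressors CTBP1 and CTBP2 bear on inflammatory gene expression in macrophages.

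There were 24 libraries in 8 groups of 3. The 18 BMDM libraries came from male C57BL6/N mice aged 6 to 12 weeks, whose marrow was differentiated in medium conditioned by L929 cells. These cells had control siRNA, Ctbp1 siRNA or Ctbp2 siRNA, each with vehicle (PBS) or with lipopolysaccharide (LPS, a bacterial cell wall product) at 100 ng/ml for 4 h. The 6 other libraries came from J774.1 cells, a macrophage line from a female BALB/c mouse, either wildtype or with a Ctbp1/2 double knockout. Both J774.1 groups had LPS at the same dose and time, so the J774.1 comparison has no vehicle arm. Whether the knockout cells are 1 clone, and whether the replicates are separate animals or cultures, is not given in the sources used here. The p-values then measure only the spread between these libraries, which may be technical.

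In the standard account, BAX and BAK form pores in the mitochondrial outer membrane that release cytochrome c, which starts caspase activation. The anti-apoptotic proteins bind and restrain them, and BH3-only proteins either neutralise the anti-apoptotic proteins or activate BAX and BAK directly. In myeloid cells MCL1 is known as a short-lived survival factor, and A1, the protein of the Bcl2a1 genes, is a known target of inflammatory signalling.

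The labelled targets were checked first. Ctbp1 was at 143, 141 and 130 TPM in control siRNA cells with vehicle and at 59.4, 55.5 and 57.1 TPM with Ctbp1 siRNA. Ctbp2 was at 52.0, 51.6 and 54.2 TPM in the same controls and at 20.4, 16.9 and 17.2 TPM with Ctbp2 siRNA. In J774.1 cells the double knockout lowered Ctbp1 from 156, 164 and 161 TPM to 21.3, 22.3 and 16.1 TPM. Ctbp2 RNA was still present there, at 64.1, 61.5 and 63.6 TPM against 81.4, 74.4 and 78.7 TPM in wildtype. RNA of a disrupted gene can persist without its protein, so this last value does not check the Ctbp2 label.

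All 8 macrophage markers had values in BMDMs, and their summed level was 12458 to 15783 TPM across libraries. Lyz2 was the largest part, with a mean of 9222 of 14103 TPM in control vehicle cells. In control siRNA cells the means of Adgre1, Csf1r and Cd14 (276 to 1678 TPM) were higher with LPS. Those of Cd68, Lyz2, Itgam, Mertk (26.7 to 4.89 TPM) and Fcgr1 (91.0 to 30.5 TPM) were lower. In J774.1 cells the sum was 3061 to 3124 TPM in wildtype and 2392 to 2650 TPM in the knockout. Mertk was at 0 in wildtype. Adgre1 (F4/80), at 225 against 15.8 TPM, and Cd14, at 1684 against 932 TPM, were lower in the knockout. Csf1r, Cd68, Lyz2, Itgam and Fcgr1 were higher there. The 6 neutrophil markers summed to 54.9 to 101 TPM in control siRNA vehicle cells and 67.1 to 111 TPM with LPS. Nearly all of this was S100a9 (mean 47.3 and 46.5 TPM) and S100a8 (32.4 and 37.5 TPM), and Elane was at 0 in both groups. In J774.1 libraries the sum of the 6 neutrophil markers was at most 0.386 TPM. Dendritic cell and lymphocyte markers summed to at most 1.79 and 0.461 TPM in BMDMs, and among 4 stromal markers the highest with LPS was Pdgfrb (sum at most 7.59 TPM), while Dcn was at 0 in control cells with LPS. Among libraries, replicate 4 of control siRNA with LPS stood apart. Over 136 genes that LPS raised at least 8-fold in Ctbp1 siRNA cells, its median was 0.45 below the other 2 libraries of its group on the log2 scale, and 96.3% of those genes were lower in it. Some results that rest on it are given with and without it below, but not all. For LPS against vehicle in control siRNA cells, estimates without it were 0.22 for Bak1, −0.54 for Bid and −0.02 for Bcl2l1. With it they were 0.28, −0.45 and −0.10.

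In vehicle-treated BMDMs the family was led by Mcl1, Bax and Bak1. Mcl1 was at 355 ± 4.91 TPM (SD, n = 3) in control siRNA cells, above Bax, Bak1, Bcl2l1 and Bcl2a1b in that order. Bid and Bcl2l11 came next and overlapped each other, followed by Bbc3, Pmaip1 and Bcl2, the founding member of the family, which was lowest. With LPS the order changed at its top: Bcl2a1b stood first, above Mcl1, in all 3 siRNA groups. In control siRNA cells with LPS Bcl2l11 stood above Bid, and Pmaip1 above Bbc3, and no neighbours overlapped. In vehicle cells with Ctbp2 siRNA Bcl2l11 was already above Bid without overlap. In wildtype J774.1 cells Mcl1 and Bcl2a1b shared the top and overlapped. In the double knockout Bcl2a1b was above Mcl1 without overlap, Bid had moved above Bak1, and Pmaip1 above Bbc3. These ranks take Bcl2a1b alone, and the division of reads among it and its near-identical copies, described below, is uncertain. Summed over the copies, Bcl2a1 RNA was above Mcl1 in both J774.1 groups. The means were 1054 against 391 TPM in wildtype and 1492 against 379 TPM in the knockout.

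**Figure D1:**
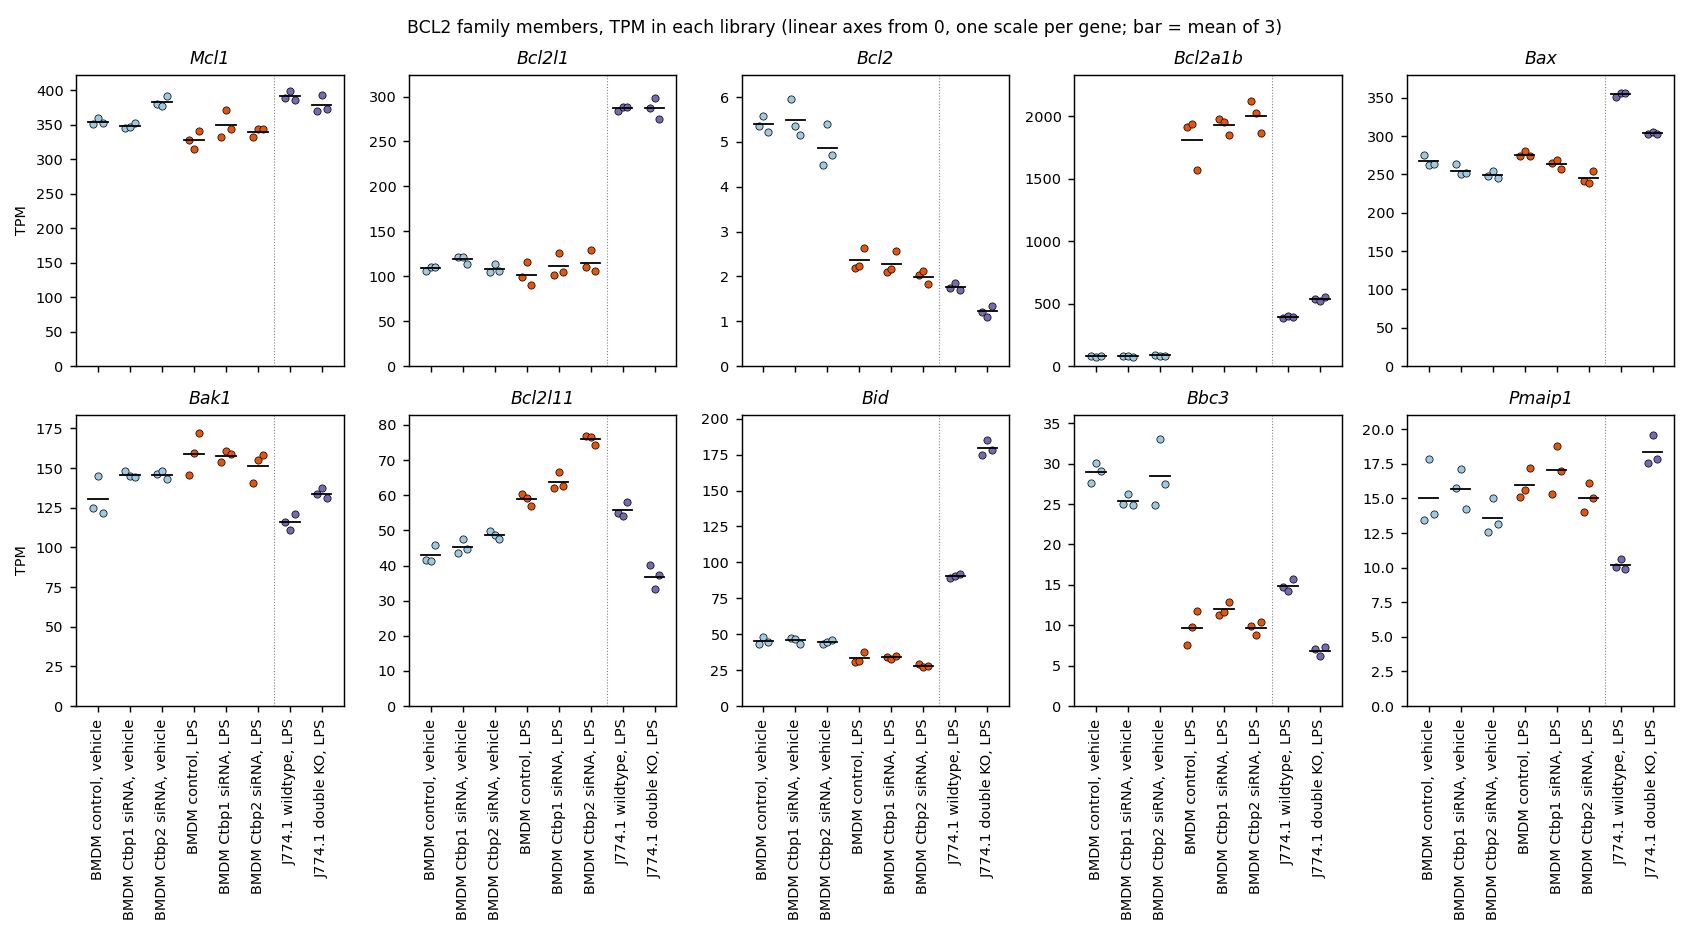
TPM of each of the 10 genes in every library, 1 panel per gene with its own linear axis from 0, and 1 point per library over the 8 groups. The dotted line parts BMDM from J774.1 libraries, whose tables were normalized separately. Bcl2a1b is at most 90.9 TPM in vehicle libraries and at least 1565 TPM in LPS-treated BMDM libraries.

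Bcl2a1b, which encodes an A1 protein, changed more with LPS than any of the other 9 genes. It was at 83.2, 69.9 and 78.1 TPM in vehicle and at 1912, 1938 and 1565 TPM with LPS in control siRNA cells. With Ctbp1 siRNA it went from 78.4, 80.2 and 76.1 TPM to 1979, 1954 and 1850 TPM, and with Ctbp2 siRNA from 90.9, 82.2 and 83.2 TPM to 2119, 2025 and 1867 TPM. Every LPS library was far above every vehicle library, and the lowest LPS value was that of control replicate 4. The log2 fold changes, on the log2(TPM + 1) scale, were 4.53, 4.61 and 4.53 with an SE of 0.0770, or 23.1-, 24.3- and 23.2-fold (limma, adjusted p = 4.08e-17, 3.14e-17 and 3.48e-17). Without control replicate 4 the first of these was 4.63. In bulk RNA, fewer cells of a type and less RNA per cell cannot be told apart, here and in every result below.

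Bcl2a1b has near-identical copies, so a read from a shared stretch can be split among them. Only a stretch of the coding sequence is shown, to let the copies be compared by eye. These are the first 150 coding bases, all in exon 1 of chromosome 9 genes in the GENCODE vM21 annotation of GRCm38, at chr9:89199360-89199509 (+ strand) for Bcl2a1b, chr9:88957051-88957200 (+ strand) for Bcl2a1a and chr9:88731570-88731719 (− strand) for Bcl2a1d. The BMDM table is on mm39, so these positions come from another build. Capitals mark the bases that differ from Bcl2a1b.
Bcl2a1b: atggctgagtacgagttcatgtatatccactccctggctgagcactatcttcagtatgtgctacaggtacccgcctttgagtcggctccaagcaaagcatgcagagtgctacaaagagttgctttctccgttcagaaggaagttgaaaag
Bcl2a1a: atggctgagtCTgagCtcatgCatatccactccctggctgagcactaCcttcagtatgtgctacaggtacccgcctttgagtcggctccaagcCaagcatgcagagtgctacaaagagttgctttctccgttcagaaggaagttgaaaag
Bcl2a1d: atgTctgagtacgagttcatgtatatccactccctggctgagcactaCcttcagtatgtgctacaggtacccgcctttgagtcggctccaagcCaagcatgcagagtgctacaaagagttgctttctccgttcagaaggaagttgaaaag
Over the whole coding sequence of 519 bases, Bcl2a1a differs from Bcl2a1b at 11 bases (97.9% identity) and Bcl2a1d at 6 (98.8%). Of the 787 31-base words in the Bcl2a1b transcript, 572 (72.7%) also occur in another copy. The share was 618 of 789 words (78.3%) for Bcl2a1a and 742 of 833 (89.1%) for Bcl2a1d. The division of reads among the copies is therefore uncertain, and their sum is the firmer quantity.

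The upstream stretches of the copies are shown because the 3 genes moved together with LPS. They come from RefSeq on GRCm38.p6: chr9:89199079-89199228 (+ strand) for Bcl2a1b, which ends 44 bases short of its annotated start, chr9:88956770-88956919 (+ strand) for Bcl2a1a and chr9:88731851-88731994 (− strand, 144 bases) for Bcl2a1d, the latter pair ending at the start. Capitals mark GAGGAA, a core of sites for ETS factors such as PU.1, on either strand.
Bcl2a1b: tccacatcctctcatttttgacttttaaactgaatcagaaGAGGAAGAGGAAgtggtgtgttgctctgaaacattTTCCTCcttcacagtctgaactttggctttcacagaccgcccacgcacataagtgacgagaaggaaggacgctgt
Bcl2a1a: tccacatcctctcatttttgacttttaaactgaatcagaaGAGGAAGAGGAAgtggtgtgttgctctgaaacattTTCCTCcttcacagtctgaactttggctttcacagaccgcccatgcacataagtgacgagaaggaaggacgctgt
Bcl2a1d: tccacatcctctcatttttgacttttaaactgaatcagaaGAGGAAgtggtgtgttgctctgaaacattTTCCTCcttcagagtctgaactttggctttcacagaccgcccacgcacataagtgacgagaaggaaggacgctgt
Bcl2a1a differs from Bcl2a1b at 1 of these bases, and GAGGAA occurs 3 times in Bcl2a1b and Bcl2a1a and 2 times in Bcl2a1d, with no overlap between matches. In the 250 bases upstream of all 32851 RefSeq promoters searched, 7639 (23.3%) held GAGGAA on either strand. It was not confined to the copies, as the promoters of Bcl2, Bak1 and Bid held it as well, with 1 match each. The NF-kB consensus was in 1281 of the promoters searched (3.90%), and among the genes here in 1 of 3 promoters of Bcl2l1 and 1 of 3 of Bbc3. The promoters of Pmaip1 were not searched. These matches describe letters in a window and were not tied to binding.

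The other copies rose with LPS from lower vehicle levels. Bcl2a1a was at 0.340, 0.566 and 0.668 TPM in control siRNA vehicle cells and at 181, 172 and 163 TPM with LPS. Bcl2a1d went from 14.8, 12.2 and 14.3 TPM to 795, 777 and 640 TPM. Both were apart from vehicle in every library, with log2 fold changes of 6.83 and 5.64 (adjusted p = 4.21e-14 and 5.21e-16). For Bcl2a1a the vehicle values lie below the pseudocount of 1, so its fold change depends on that choice.

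Summed over the 3 copies, Bcl2a1 RNA was at 91.4 ± 7.99 TPM (SD, n = 3) in control vehicle cells and at 2714 ± 300 TPM with LPS. Its share of the anti-apoptotic sum (Bcl2, Bcl2l1, Mcl1 and the copies) went from 16.3% to 86.2%, while the share of Mcl1 went from 63.3% to 10.5%. The share with LPS was 86.2% with Ctbp1 siRNA and 87.0% with Ctbp2 siRNA. The summed BAX and BAK RNA was 398 ± 10.8 TPM in vehicle and 435 ± 13.8 TPM with LPS. Summed RNA of the 4 BH3-only genes was 132 ± 5.70 TPM and 118 ± 5.26 TPM. The whole anti-apoptotic sum went from 560 ± 1.74 to 3147 ± 299 TPM, while Bcl2, Bcl2l1 and Mcl1 together stood at 469 ± 6.67 and 432 ± 2.11 TPM. These are sums of RNA and say nothing of protein.

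**Figure D2:**
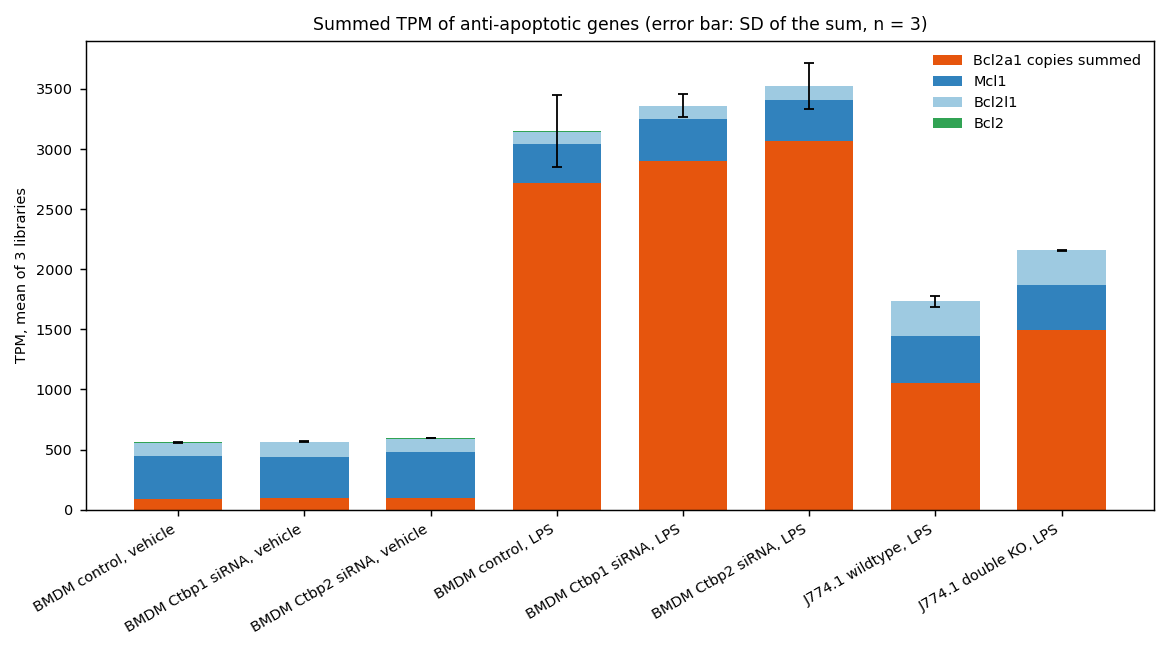
Mean TPM of the anti-apoptotic genes stacked by gene in each of the 8 groups of 3 libraries, with the 3 Bcl2a1 copies summed into a single segment and bars starting at 0. The copies make up 16.3% of the stack in control siRNA vehicle cells and 86.2% with LPS.

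The comparison of LPS with vehicle was made within each siRNA group. Calls were made where the p-value, adjusted by Benjamini-Hochberg over all genes tested, fell under 0.05. In control siRNA cells 3 of the 10 genes were called higher and 4 lower, against 18.6% and 53.6% of the 12146 genes tested. With Ctbp1 siRNA 2 were higher and 3 lower, against 19.4% and 51.1%, and with Ctbp2 siRNA 2 higher and 4 lower, against 18.6% and 55.3%. A count of calls is thus close to what genes at large did, and the median of all genes was itself displaced, at −0.29, −0.26 and −0.32 on the log2 scale. When each library was rescaled by the median of its ratios, that shift was removed, and the calls among the 10 genes became 6 higher and 2 lower, 6 and 2, and 7 and 3. Over all genes the rescaling took the higher share of calls from 25.7% to 52.3%, from 27.5% to 52.1% and from 25.2% to 51.8%. Directions that turn on this choice are given with both values below.

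**Figure D3:**
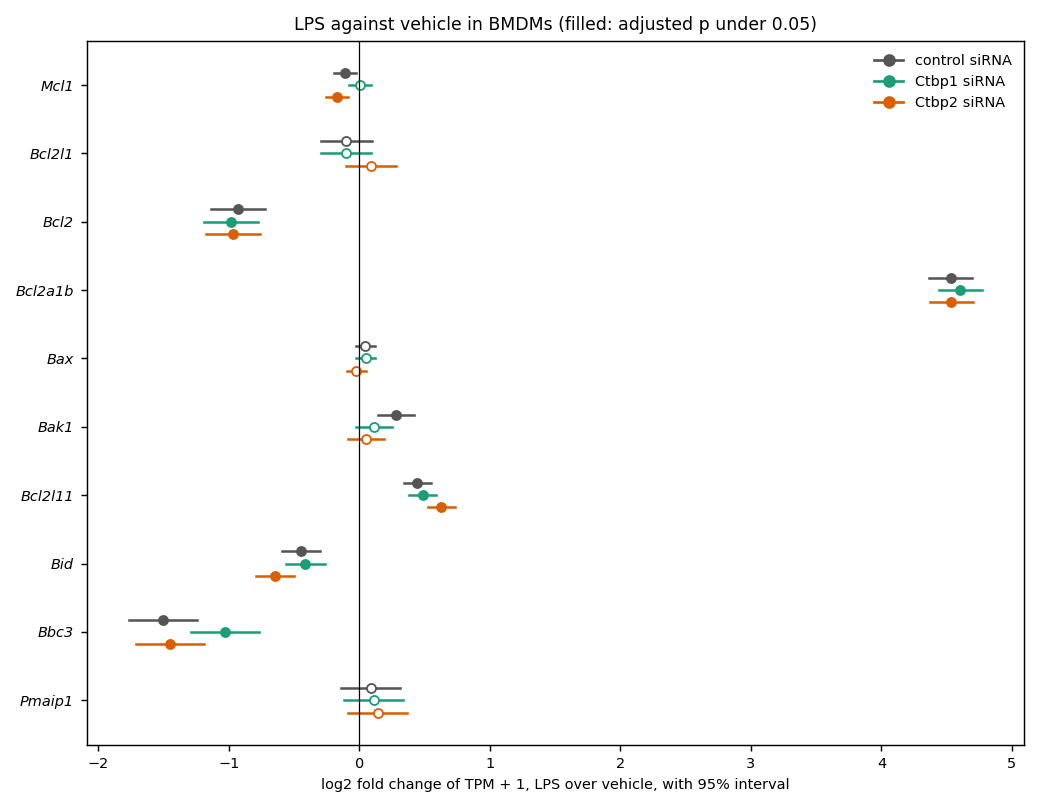
Log2 fold change of the 10 genes with LPS against vehicle, on the log2(TPM + 1) scale, in control, Ctbp1 and Ctbp2 siRNA BMDMs (3 against 3 libraries each). Points are limma estimates and bars 95% confidence intervals. Bcl2a1b stands alone at 4.53 to 4.61, and Bbc3, Bcl2 and Bid lie below 0 in all 3 groups on the TPM scale.

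**Figure D4:**
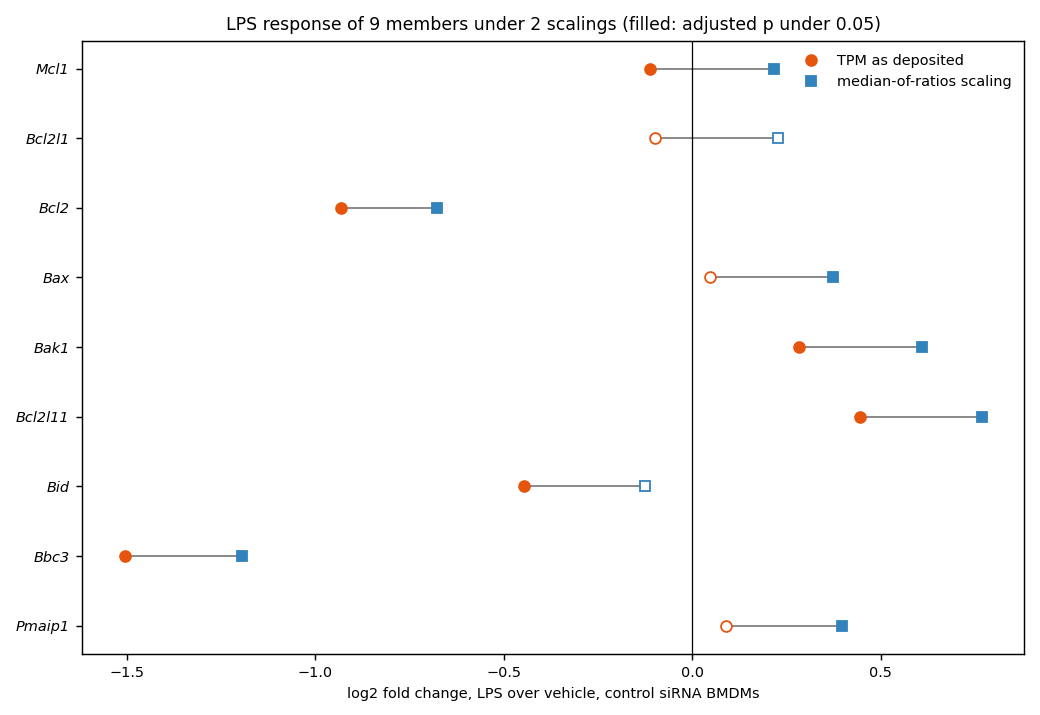
Log2 fold change with LPS in control siRNA BMDMs for 9 genes (Bcl2a1b, at 4.53, is off the scale and left out), on the TPM scale and after median-of-ratios scaling. Every estimate moves upward, and Mcl1 (−0.11 to 0.22) and Bcl2l1 (−0.10 to 0.23) cross 0.

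Mcl1, abundant in every group, moved little with LPS and its direction depended on the scaling. It was at 350, 360 and 353 TPM in control vehicle cells and at 328, 315 and 341 TPM with LPS, so every LPS library was below every vehicle library. The log2 fold change was −0.11 (adjusted p = 0.0168) on the TPM scale and 0.22 (adjusted p = 3.96e-05) after the rescaling. The call on the TPM scale was lost without control LPS replicate 3 (−0.08, adjusted p = 0.0892) or control vehicle replicate 3 (−0.10, adjusted p = 0.056), and without control LPS replicate 4 it was −0.14 (adjusted p = 0.00609). With Ctbp1 siRNA the values were 345, 347 and 352 TPM against 333, 371 and 344 TPM, which overlap (0.00, adjusted p = 0.931, or 0.30 rescaled, adjusted p = 1.06e-06). With Ctbp2 siRNA they were 379, 377 and 392 against 332, 344 and 343 TPM, −0.17 (adjusted p = 0.00084) and 0.19 when rescaled (adjusted p = 0.000145). The level of Mcl1 relative to other genes therefore has no settled direction with LPS in these libraries.

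Bcl2l1, whose main product is BCL-XL, was at 106, 110 and 110 TPM in control vehicle cells and at 99.3, 116 and 90.4 TPM with LPS. The groups overlapped, and no call was made in any siRNA group on the TPM scale (−0.10, −0.10 and 0.09, adjusted p = 0.341, 0.324 and 0.388). After rescaling, the values were 0.23, 0.19 and 0.45, with a call in Ctbp2 siRNA cells alone (adjusted p = 0.000923).

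Bcl2 itself fell with LPS in each siRNA group. It was at 5.36, 5.59 and 5.23 TPM in control vehicle cells and at 2.20, 2.24 and 2.63 TPM with LPS. With Ctbp1 siRNA it went from 5.95, 5.36 and 5.15 TPM to 2.11, 2.17 and 2.57 TPM, and with Ctbp2 siRNA from 4.49, 5.40 and 4.72 TPM to 2.03, 2.13 and 1.83 TPM. No LPS library reached any vehicle library. The log2 fold changes were −0.93, −0.98 and −0.97 with an SE of 0.0973 (adjusted p = 2.72e-07, 1.49e-07 and 1.53e-07), which the added 1 TPM makes smaller than the ratio of the levels.

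The effectors changed less. Bax was at 276, 262 and 264 TPM in control vehicle cells and at 274, 280 and 274 TPM with LPS, which overlap, and no group was called on the TPM scale (0.05, 0.05 and −0.03). After rescaling all 3 were called higher (0.37, 0.34 and 0.34). Bak1 was at 125, 145 and 122 TPM in control vehicle cells and at 145, 160 and 172 TPM with LPS. Every LPS library was above every vehicle library, although the nearest pair differed by less than 1 TPM. It rose by 0.28 (1.22-fold, adjusted p = 0.00095) in control cells. The estimates were 0.11 and 0.05 with Ctbp1 and Ctbp2 siRNA, not called on the TPM scale (adjusted p = 0.131 and 0.475). After rescaling all 3 were called higher, at 0.61, 0.41 and 0.41 (adjusted p = 8.18e-08, 9.04e-06 and 7.47e-06). The difference between siRNA groups was not called under either scaling.

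Among the BH3-only genes, Bcl2l11, which encodes BIM, rose with LPS in each siRNA group. It was at 41.7, 41.4 and 45.9 TPM in control vehicle cells and at 60.3, 59.4 and 56.9 TPM with LPS. With Ctbp1 siRNA it went from 43.6, 47.5 and 44.8 TPM to 62.1, 66.6 and 62.7 TPM, and with Ctbp2 siRNA from 49.9, 48.8 and 47.5 TPM to 76.8, 76.6 and 74.2 TPM. Every LPS library was above every vehicle library. The log2 fold changes were 0.45, 0.48 and 0.63 with an SE of 0.0487 (adjusted p = 4.77e-07, 1.82e-07 and 6.48e-09). After rescaling they were 0.77, 0.78 and 0.98, and every call was kept.

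Bbc3, which encodes PUMA, a p53 target, also fell with LPS in each siRNA group. Control cells went from 27.7, 30.0 and 29.1 TPM to 7.50, 9.78 and 11.8 TPM, Ctbp1 siRNA cells from 25.0045, 26.3 and 24.9 TPM to 11.3, 11.7 and 12.9 TPM, and Ctbp2 siRNA cells from 24.8, 33.0 and 27.5 TPM to 9.85, 8.83 and 10.4 TPM. No LPS library came near the vehicle range. The log2 fold changes were −1.50, −1.03 and −1.45 (adjusted p = 1.27e-08, 1.32e-06 and 1.78e-08), and the first was −1.64 without control replicate 4. The fall was smaller by 0.48 with Ctbp1 siRNA than with control siRNA, but this interaction was not called (SE 0.173, adjusted p = 0.64). Without control LPS replicate 4 the interaction was 0.62, again not called (adjusted p = 0.192).

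Bid, which links caspase-8 to the mitochondria, also fell on the TPM scale, while rescaling removed the call in control and Ctbp1 siRNA cells. It was at 43.5, 48.3 and 44.6 TPM in control vehicle cells and at 30.5, 31.5 and 37.7 TPM with LPS, the highest of these in replicate 4. The log2 fold changes were −0.45, −0.41 and −0.65 (adjusted p = 2.52e-05, 5.63e-05 and 3.48e-07). After rescaling they were −0.12, −0.12 and −0.29, with adjusted p = 0.0867, 0.0902 and 0.000505. Pmaip1, which encodes NOXA, a partner of MCL1, was at 13.5, 17.8 and 13.9 TPM in control vehicle cells and at 15.1, 15.6 and 17.2 TPM with LPS. These overlap, and no group was called on the TPM scale (0.09, 0.11 and 0.14), while all 3 were after rescaling (0.40, 0.39 and 0.48).

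In the authors' deposited table, made with DESeq2, 7 of the 10 genes were higher and 2 lower with LPS in control cells. The counts there were 6 and 2 with Ctbp1 siRNA, and 7 and 3 with Ctbp2 siRNA. These are nearer to the rescaled counts than to those on the TPM scale. They come from the same libraries, with counts normalized within DESeq2, and so are no independent check of either scaling.

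The siRNA comparisons asked whether either corepressor bears on the family. Those within vehicle share their control libraries, as do those within LPS. Leaving out control replicate 4 with LPS took the genes called over the whole table from 7 to 83 for Ctbp1 siRNA with LPS and from 236 to 145 for Ctbp2 siRNA with LPS. With Ctbp1 siRNA none of the 10 genes was called in vehicle, where 0.107% of all genes were, nor with LPS, where 0.0576% were. At an unadjusted p under 0.05 there was 1 in vehicle (Bak1) and 3 with LPS (Mcl1, Bcl2l11 and Bbc3), and the authors' deposited table had 0 and 0. In vehicle that table gives no adjusted p for Bcl2 and Bbc3. Of all genes called with Ctbp1 siRNA in vehicle 7.69% were higher, or 52.6% after rescaling, and with LPS 0% under both. The estimates ran from −0.18 to 0.16 in vehicle and from −0.07 to 0.29 with LPS, and their 95% confidence intervals together spanned −0.44 to 0.32 and −0.24 to 0.55. Without control LPS replicate 4 the highest of those with LPS, for Bbc3, was 0.44 and not called (adjusted p = 0.0997).

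With Ctbp2 siRNA none of the 10 was called in vehicle, where 0.568% of all genes were (47.8% of them higher, or 78.6% after rescaling). Of the 10, 4 had an unadjusted p under 0.05 in vehicle (Mcl1, Bax, Bak1 and Bcl2l11). The authors' deposited table had 3 higher in vehicle, and gave Bbc3 no adjusted p. With LPS 2 of the 10 were called, Bcl2l11 higher and Bax lower, against 1.94% of all genes, of which 26.7% were higher, or 65.6% after rescaling. With a replicate block the genes called over the whole table were 414 instead of 236, and the same 2 members were called (adjusted p = 0.00185 for Bcl2l11 and 0.0158 for Bax). The authors' deposited table had 2 there, Bcl2l11 and Mcl1, both higher.

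Bcl2l11 was at 76.8, 76.6 and 74.2 TPM with Ctbp2 siRNA and LPS, above the 60.3, 59.4 and 56.9 TPM of control siRNA with LPS in every library. The log2 fold change was 0.36 (SE 0.0487, 1.28-fold, adjusted p = 0.00157), and it was 0.34 (adjusted p = 0.00668) without control replicate 4. After rescaling it was 0.44 (adjusted p = 0.00176). Fitted on the 6 libraries compared alone, which leaves fewer degrees of freedom for the spread, the same 0.36 was not called (adjusted p = 0.102). In vehicle Bcl2l11 was at 49.9, 48.8 and 47.5 TPM against 41.7, 41.4 and 45.9 TPM, again without overlap, with an estimate of 0.18 that was not called (adjusted p = 0.132). The authors' deposited table gives 0.22 in vehicle (adjusted p = 0.0421) and 0.44 with LPS (adjusted p = 4.84e-08). The difference between LPS and vehicle in this effect was 0.18 (SE 0.0689) and not called (adjusted p = 0.515). With Ctbp1 siRNA and LPS the estimate for Bcl2l11 was 0.11 (adjusted p = 0.619).

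Bax with LPS was at 242, 239 and 254 TPM with Ctbp2 siRNA and at 274, 280 and 274 TPM with control siRNA. The groups did not overlap, and the log2 fold change was −0.17 (SE 0.0344, adjusted p = 0.0171). The call did not hold after rescaling (−0.10, adjusted p = 0.268), on the 6 libraries alone (adjusted p = 0.263), or without Ctbp2 siRNA replicate 1 (adjusted p = 0.0733) or replicate 3 (adjusted p = 0.0742) with LPS. Bid was at 29.5, 27.4 and 27.9 TPM with Ctbp2 siRNA and LPS, below 30.5, 31.5 and 37.7 TPM in control cells. Its estimate of −0.22 was not called (adjusted p = 0.114), and it was −0.13 without control replicate 4. The Bcl2a1 copies did not pass the limma test with either siRNA. Bcl2a1a with LPS was at 241, 212 and 229 TPM with Ctbp2 siRNA and at 181, 172 and 163 TPM in control cells, without overlap (0.40, adjusted p = 0.311), and the authors' deposited table calls it higher (0.48, adjusted p = 0.000162).

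Whether the siRNAs changed the response to LPS was tested as an interaction. With Ctbp1 siRNA no gene of the whole table was called (0%), and with Ctbp2 siRNA 0.0329% were, none of them among the 10. At an unadjusted p under 0.05 there was 1 member with Ctbp1 siRNA (Bbc3) and 2 with Ctbp2 siRNA (Bak1 and Bcl2l11).

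The double knockout in J774.1 cells was compared with wildtype, both with LPS. Of the 10 genes, 4 were called higher (Bcl2a1b, Bak1, Bid and Pmaip1) and 3 lower (Bax, Bcl2l11 and Bbc3), against 23.0% and 13.2% of 11818 genes tested. Over all genes the higher share of calls was 63.6%, or 48.3% after rescaling. Under the rescaling each of those 7 genes kept its direction and its call, and Mcl1 was added as lower (−0.11, adjusted p = 0.0165). Of the 10, the authors' deposited table has as called 4 higher and 4 lower. Adgre1 moved with this comparison, as given above, and macrophage markers were called both higher (5) and lower (2) of 7 tested. Whether their change has a part in these results was not tested.

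**Figure D5:**
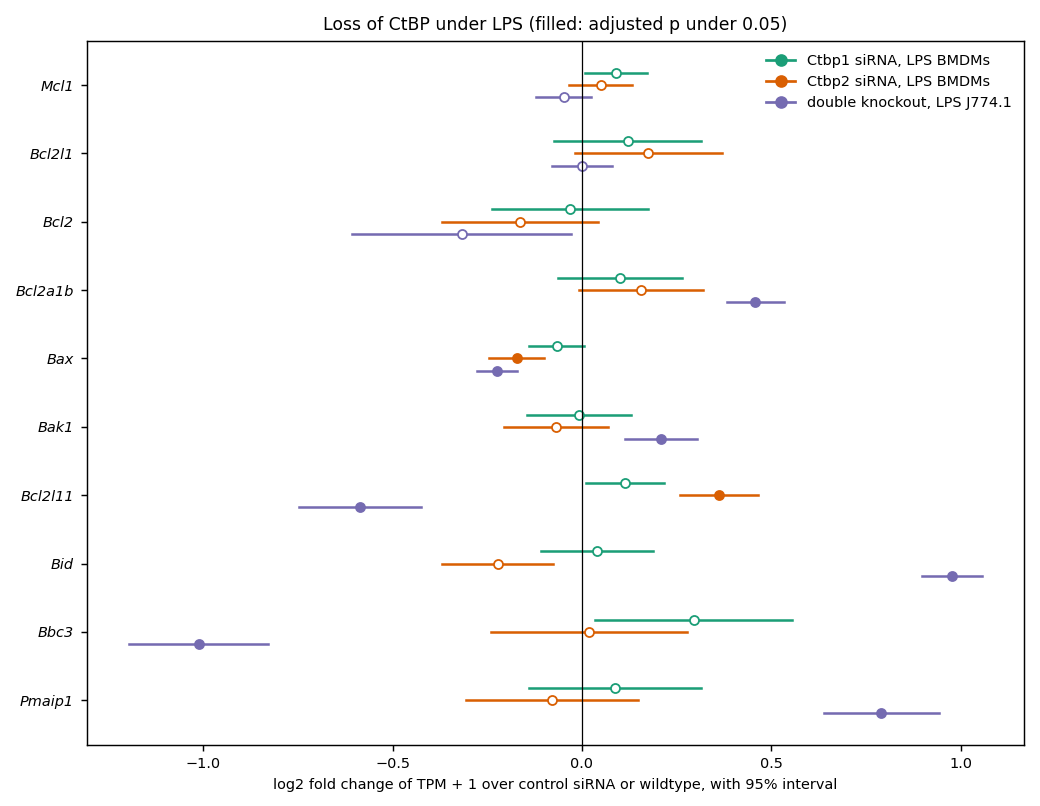
Log2 fold change of the 10 genes on the log2(TPM + 1) scale for Ctbp1 siRNA and Ctbp2 siRNA against control siRNA in BMDMs with LPS, and for the double knockout against wildtype in J774.1 cells with LPS (3 against 3 libraries each). Points are limma estimates and bars 95% confidence intervals. Bid (0.98) and Bbc3 (−1.01) lie furthest from 0 in the knockout, and Bcl2l11 lies above 0 with Ctbp2 siRNA (0.36) and below 0 in the knockout (−0.59).

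The BH3-only genes moved furthest in the knockout, and not in 1 direction. Bid was at 88.9, 90.6 and 92.2 TPM in wildtype and at 175, 185 and 178 TPM in the knockout, higher by 0.98 on the log2 scale (SE 0.0339, 1.97-fold, adjusted p = 8.26e-07). Pmaip1 was at 10.0, 10.6 and 9.87 TPM against 17.6, 19.6 and 17.9 TPM, higher by 0.79 (SE 0.0651, 1.73-fold, adjusted p = 6.55e-05). The knockout libraries were above the wildtype libraries for both genes, with no overlap.

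The other BH3-only genes fell. Bbc3 was at 14.7, 14.2 and 15.7 TPM in wildtype and at 7.11, 6.24 and 7.29 TPM in the knockout, a log2 fold change of −1.01 (SE 0.0785, 0.496-fold, adjusted p = 4.71e-05). Bcl2l11 was at 54.9, 54.1 and 58.0 TPM against 40.0, 33.3 and 37.2 TPM, a log2 fold change of −0.59 (SE 0.0691, 0.666-fold, adjusted p = 0.000471). Wildtype and knockout libraries did not overlap for either gene. In the authors' deposited table Bcl2l11 changed by −0.75 (adjusted p = 1.04e-37). Its estimate in Ctbp2 siRNA BMDMs with LPS was 0.36, of the other sign. Cell, method of depletion and the second corepressor all differ between these results, and the tables were normalized separately, so the difference was not tested. Summed over the 4 genes, BH3-only RNA was at 171 ± 3.96 TPM in wildtype and at 241 ± 2.69 TPM in the knockout, with Bid the largest part.

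The anti-apoptotic genes differed less in the knockout. Bcl2a1b was at 381, 400 and 389 TPM in wildtype and at 533, 522 and 555 TPM in the knockout, higher by 0.46 (SE 0.0319, 1.37-fold, adjusted p = 2.65e-05) with no overlap. The copies were also higher, Bcl2a1a from 21.8, 20.4 and 16.8 TPM to 25.4, 26.1 and 28.6 TPM (0.43, adjusted p = 0.0108) and Bcl2a1d from 610, 671 and 650 TPM to 941, 924 and 922 TPM (0.53, adjusted p = 2.36e-05). Summed, the copies were at 1054 ± 40.0 TPM and 1492 ± 18.002 TPM, or 60.8% and 69.1% of the anti-apoptotic sum. In J774.1 cells Bcl2a1d was listed above Bcl2a1b, with 61.1% of the summed copies in wildtype against 37.1% for Bcl2a1b. In control siRNA BMDMs those shares were 27.2% and 66.5% with LPS, and 15.1% and 84.3% with vehicle. In Ctbp2 siRNA BMDMs with LPS they were 27.3% and 65.3%. J774.1 cells and BMDMs come from different mouse strains, and the split among copies is uncertain as described above.

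Mcl1 was at 389, 399 and 386 TPM in wildtype J774.1 cells and at 370, 393 and 373 TPM in the knockout, which overlap, and was not called on the TPM scale (−0.05, adjusted p = 0.267). Bcl2l1 was at 284, 289 and 288 TPM against 288, 299 and 275 TPM, an estimate of 0.00 (adjusted p = 0.997) that was −0.06 when rescaled. Bcl2 was at 1.75, 1.86 and 1.69 TPM against 1.21, 1.10 and 1.35 TPM. Its groups did not overlap, yet the estimate of −0.32 was not called (adjusted p = 0.0832). It was called when the spread was estimated without a trend or robust weights (adjusted p = 0.00837), and in the authors' deposited table (−0.61, adjusted p = 0.00175).

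The effectors moved in opposite directions in the knockout. Bax was at 351, 356 and 356 TPM in wildtype and at 303, 305 and 303 TPM in the knockout, a log2 fold change of −0.22 (0.857-fold, adjusted p = 0.000209). Bak1 was at 116, 111 and 121 TPM against 133, 138 and 131 TPM, higher by 0.21 (adjusted p = 0.00559). Neither overlapped between genotypes, and their sum was 470 ± 5.85 TPM in wildtype and 437 ± 4.46 TPM in the knockout.

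The genes around the family were described from lists by role, each counted whole. Their counts with LPS stand beside 18.6% of all genes called higher and 53.6% lower, and those in the knockout beside 23.0% and 13.2%. Of 10 tested genes in the rest of the BCL2 family, 3 were higher and 5 lower with LPS in control siRNA cells (median −0.22), or 4 and 3 after rescaling (median 0.10). Bmf, another BH3-only gene, was at 8.97, 8.72 and 8.60 TPM in vehicle and at 0.229, 1.62 and 0.613 TPM with LPS, a log2 fold change of −2.49 (adjusted p = 9.83e-09). In J774.1 cells with LPS it was at 0.795, 0.992 and 0.675 TPM in wildtype and at 12.4, 11.5 and 12.5 TPM in the knockout, higher by 2.86 (adjusted p = 9.4e-07). The lower values of Bmf in each comparison lie near the pseudocount of 1, so the size of both fold changes depends on that choice. The authors' deposited table gives −3.07 and 3.57. Of 9 tested genes of that list, 3 were higher in the knockout (Bmf and both other Bcl2a1 copies) and none lower, at a list median of 0.19 beside 0.05 for all genes.

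Of 9 caspase and apoptosome genes, 2 were higher with LPS and 7 lower (median −0.95), or 2 and 6 after rescaling. Casp2 and Casp9 fell, with log2 fold changes of −1.85 and −1.75 (adjusted p = 1.28e-10 and 1.05e-09). In the knockout 4 of the 9 were higher and 0 lower, or 3 and 0 after rescaling, Casp9 by 0.78 (adjusted p = 0.000624). Among inhibitors of apoptosis and their antagonists, 2 of 7 were higher with LPS and 4 lower, or 3 and 2 after rescaling. Birc3 and Birc2, which encode cIAP proteins, were higher by 2.42 and 1.12 (adjusted p = 1.61e-13 and 2.56e-08).

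In the death receptor arm, 3 of 8 genes were higher with LPS and 5 lower, or 3 and 3 after rescaling. Fas, a death receptor, went from 5.75, 5.46 and 6.73 TPM to 75.9, 77.7 and 70.7 TPM, and Cflar, whose product c-FLIP restrains caspase-8, from 60.3, 57.7 and 61.7 TPM to 422, 444 and 370 TPM. Both were far above vehicle in every library (3.44 and 2.76, adjusted p = 3.61e-14 and 5.36e-16). In the knockout 5 of the 8 were higher and 1 lower, with and without rescaling. Fas was at 5.31, 5.43 and 5.51 TPM in wildtype and at 18.04, 18.4 and 19.1 TPM in the knockout (1.60, adjusted p = 1.19e-06), and Casp8, which cleaves BID, was higher by 0.59 (adjusted p = 3.15e-05). Tnfrsf10b, a TRAIL receptor, was lower (−0.76, adjusted p = 0.00332).

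Of 8 genes tied to transcription of BH3-only genes, 1 was higher with LPS and 6 lower, or 1 and 5 after rescaling, with Foxo3 at −2.11 and Jun at −1.90 (adjusted p = 1.89e-12 and 1.02e-10). In the knockout 0 of 6 were higher and 4 lower, with and without rescaling, Jun at −1.21, Trib3 at −1.17 and Ddit3 at −0.80. Of 11 tested p53 pathway genes, 5 were higher and 3 lower with LPS, or 8 and 2 after rescaling, and in the knockout 2 of 9 were higher and 5 lower. In the knockout 1 of 7 inhibitors of apoptosis and antagonists was higher and 1 lower, or 1 and 2 after rescaling. Genes that control MCL1 turnover (1 higher and 2 lower of 5 with LPS) and mitochondrial partners of BAX and BAK (1 and 3 of 6) became 3 and 1, and 5 and 0, after rescaling. In the knockout these lists had 1 of 5 and 3 of 6 higher and none lower, or 0 of 5 and 2 of 6 higher after rescaling. With Ctbp2 siRNA 1 gene of these lists was called in vehicle (Mdm4, −0.42, adjusted p = 0.0348) and 2 with LPS (Casp8, −0.23, adjusted p = 0.0365, and Ccng1, −0.21, adjusted p = 0.0423). After rescaling Mdm4 was still called (−0.38, adjusted p = 0.0479), while Casp8 and Ccng1 were not (adjusted p = 0.142 and 0.106).

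Across the 18 BMDM libraries, the genes whose log2 levels were most like those of a member were sought among 7917 genes. For Bcl2a1b they were Nod2 and Acod1 (Pearson r = 0.999 for each), and for Bcl2l11 Ier2 and Cd44 (0.982 and 0.969). For Mcl1 the closest were lower, Uqcc1 (0.837) and Timm21 (0.800). The 18 libraries fall into only 2 treatments, vehicle and LPS, and r is a description over them.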

How the data were processed

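Per the file headers, the deposited BMDM values are gene-level scaled TPM from Salmon on mm39. The J774.1 header names no unit, and its deposited columns were read as TPM because they are fractional and have nearly the same totals as the BMDM columns. Per the submitters' processing notes, the tools were FastQC, Salmon 1.9.0 and DESeq2 1.44.0 in R 4.4.1. The authors' deposited tables also hold DESeq2 log2 fold changes, p-values and a signal, the mean normalized count. TPM keeps no read count, so depth per library and its counting error are unknown, and TPM sums were 999502.9 to 999943.6. The J774.1 table has 190 repeated identifiers with equal TPM, kept once.

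Here limma 3.58.1 in R 4.3.3 (lmFit, eBayes with trend and robust) was run on log2(TPM + 1) for genes averaging 1 TPM or more, the 18 BMDM libraries in 1 fit and the 6 J774.1 libraries in another, over 10 comparisons. P-values were adjusted by Benjamini-Hochberg over all genes of a comparison. Scripts were tested on simulated data. Replicate numbers are those of the sample titles, and for some BMDM libraries the sample characteristics give a different number. Deviations of same-numbered libraries from their group means correlated at 0.103, 0.111 and 0.191 for Ctbp2 siRNA and control siRNA with LPS, which was taken as pairing from the data, and the labels do not state it. The genes and lists were chosen with earlier results of these data known. All 10 members are named by rule, as are up to 3 called genes per other list with the largest changes. Some genes of these lists are not reported here. Alternatives were the pseudocount, the filter, median-of-ratios scaling, the variance model, a replicate block, fewer libraries and leaving out each library.

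The kit is unstranded, and RefSeq genes overlap Bcl2 (Mir3473f, Gm37053), Bcl2l1 (Cox4i2, Gm32211), Bak1 (Ggnbp1), Bcl2l11 (Acoxl) and Bid (Gm17812), so reads there cannot be told apart by strand.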

Additional observations from a re-analysis of the deposited data

How the results depend on the processing

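Of 1116 recomputed values of the single-gene estimates in the text, 1084 kept their direction and their side of the threshold, 12 became called, 9 were no longer called and 11 changed sign. Many of these estimates could not move. Leaving out a library moves only the estimates of comparisons that use its group. The filter, the variance model, the replicate block and the fit on the libraries compared move none. In those cases only the p-value can change, so the first count overstates how stable the estimates are. The median-of-ratios scaling accounted for 19 changes among 50 values, against 3 of 40 with only the libraries compared, 1 of 50 without trend and robust weights, and 0 under a pseudocount of 0.1 (50), no filter (50) or a minimum mean of 10 TPM (46, where Bcl2 gives no value). Under that scaling the genes called with LPS were 8 instead of 5 with Ctbp1 siRNA and 10 instead of 6 with Ctbp2 siRNA, and 1 instead of 2 for Ctbp2 siRNA against control with LPS. The last count was 0 with only the libraries compared, and 1 to 2 when each library was left out. Of all 100 estimates of the 10 genes, 12 changed sign under the scaling, which removes a median shift, and 3 of these were called under either scaling. Among the estimates in the text they were Bcl2l1 with LPS in control (0.23) and Ctbp1 siRNA cells (0.19), Mcl1 with LPS in control (0.22) and Ctbp2 siRNA cells (0.19), Bax with LPS in Ctbp2 siRNA cells (0.34) and Bcl2l1 in the knockout (−0.063). Leaving out libraries moved Mcl1 with LPS in Ctbp1 siRNA cells between −0.040 and 0.038, and Bcl2l1 in the knockout between −0.029 and 0.031. The depth of each library is unknown, so what it limits could not be given.

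Over all genes, calls for Ctbp2 siRNA with LPS were 236, and 132 with no filter, 4 with only the libraries compared and 66 to 295 with a library left out. In vehicle they were 69, and 45 with no filter, 42 without trend and robust weights, 22 with only the libraries compared and 4 to 105 with a library left out. For Ctbp1 siRNA they were 13 in vehicle and 7 with LPS, and 5 to 38 and up to 83 with a library left out. Replicate numbers were taken to pair 2 groups where all 3 same-numbered pairs correlated over 0.1, which among the comparisons held only for Ctbp2 siRNA against control with LPS. Over all groups, deviations of same-numbered BMDM libraries correlated at −0.15 to 0.32, over 0.1 in 21 of 45 pairs, although 18 of 18 libraries were on average closest to their own number (4 of 6 in J774.1). With the replicate block, 0 of the 50 values of single genes changed call. The groups compared hold the same replicate numbers, so the block cannot move an estimate and tests no direction. The block raised calls over all genes for Ctbp2 siRNA to 414 with LPS and 155 in vehicle.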
